A study of Homo sapiens with 6 samples.

Results

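The 51 genes described here encode heat shock proteins, their co-chaperones and the subunits of the chaperonins, together with the transcription factors HSF1 and HSF2. They were chosen by gene symbol from a table of 61806 genes, and all 51 were found. Most of the proteins work in the cytosol, although HSPA9, TRAP1, HSPD1, HSPE1 and DNAJA3 belong to mitochondria, HSPA13 to the endoplasmic reticulum, and the transcription factors act in the nucleus. RNA sequencing had been performed on U87-MG, an established human glioma line, in 3 libraries of a negative control (NC, genotype given as wildtype) and 3 libraries labelled GRIK1 siRNA (genotype given as GRIK1 knockdown). GRIK1 is a subunit of the kainate-type glutamate receptors, and the study asked which genes change when it is lowered. The sample titles name siRNA1 to siRNA3 and the series text names shRNA, and the labels do not say whether the numbers stand for different siRNA sequences or for repeats of one. The study designed siRNAs of these 3 names and took siRNA1 for its later experiments, which does not settle what the numbers in these titles mean. They do not say either whether the libraries came from separate cultures, so the p-values measure only the spread between these libraries.

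Chaperones bind proteins that are not folded and help them to fold, to stay soluble or to be degraded. HSP70 proteins bind short hydrophobic stretches in a cycle driven by ATP, J-domain proteins bring them their clients and stimulate the ATPase, and HSP110 and BAG proteins release the nucleotide. HSP90 then takes over clients such as kinases and steroid receptors with the help of co-chaperones, and the ring-shaped chaperonins fold proteins inside a cavity, CCT in the cytosol (actin and tubulin are its best known clients) and HSPD1 with HSPE1 in mitochondria. Under heat or other protein damage, HSF1 forms trimers that bind heat shock elements, repeats of the unit GAA in alternating orientation, and several of these genes, with HSPA6, HSPA1A, HSPA1B and DNAJB1 among the best known, are switched on from a low level. Others, such as HSPA8 and HSP90AB1, are made at a high level in growing cells, tumour cells included.

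The promoters are shown first because the heat shock element is the sequence that HSF1 binds, although most of the genes hold no full match. RefSeq promoter windows (GRCh38.p14, 250 bases before to 50 bases after a transcript start) were matched for 45 of the 51 genes and searched on both strands for 3 adjoining units without a mismatch, GAANNTTCNNGAA or TTCNNGAANNTTC. This motif was in 8 of the 45 genes (17.8%) and in 166 of the 27305 genes with a window (0.608%). For the shorter motif of 2 units, GAANNTTC or TTCNNGAA, which every longer match also holds, the count was 23 of the 45 genes (51.1%) and 16.2% of all genes. A match describes the letters in the window and was not tested as a site of binding. The stretches below are read 5′ to 3′ on the strand of the gene with the matched units in capitals, and DNAJA1, whose match began at base 4 after the start, is not printed.

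HSPA6, chr1:161524441-161524503, plus strand, bases -99 to -37 from the start: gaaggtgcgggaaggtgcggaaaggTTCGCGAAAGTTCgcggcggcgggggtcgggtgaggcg
HSPA8, chr11:123062346-123062374, minus strand, bases -238 to -210: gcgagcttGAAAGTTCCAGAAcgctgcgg
HSPA8, chr11:123062171-123062199, minus strand, bases -63 to -35: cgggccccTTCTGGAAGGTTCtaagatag
HSP90AA1, chr14:102087112-102087140, minus strand, bases -96 to -68: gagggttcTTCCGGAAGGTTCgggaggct
HSP90AB1, chr6:44247753-44247815, plus strand, bases -190 to -128: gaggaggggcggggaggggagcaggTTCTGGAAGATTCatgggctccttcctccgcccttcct
HSP90AB1, chr6:44247806-44247868, plus strand, bases -137 to -75: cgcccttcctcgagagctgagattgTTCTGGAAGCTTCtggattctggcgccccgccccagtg
CHORDC1, chr11:90223084-90223112, minus strand, bases -63 to -35: ccgGAAAATTCGCGAAGGTTCCTGAAacg
HSPD1, chr2:197500062-197500090, minus strand, bases -250 to -222: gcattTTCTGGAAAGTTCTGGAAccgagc
DNAJB6, chr7:157336848-157336910, plus strand, bases -156 to -94: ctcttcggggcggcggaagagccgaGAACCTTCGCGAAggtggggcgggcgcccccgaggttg

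The runs in CHORDC1 and HSPD1 are longer than 3 units, and hold 3 and 2 overlapping matches, respectively. HSPA1A and HSPA1B, whose windows hold 1 match to the shorter motif each, are not among the 8.

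The libraries held between 11099909 and 14006968 counts. Transcripts of VIM (825 to 1076 FPKM) and CD44 (50.8 to 71.6 FPKM) were abundant, while the neural stem cell marker NES (at most 0.69 FPKM), the astrocyte markers GFAP (at most 0.28 FPKM) and S100B (at most 0.04 FPKM) and the blood marker PTPRC (at most 0.03 FPKM) were at or near 0. The glial glutamate transporter SLC1A3 was present at 2.0 to 3.48 FPKM. It was called lower in the libraries labelled GRIK1 siRNA (edgeR with all 6 libraries, log2 fold change -0.68, SE 0.12, adjusted p = 0.0378). The epithelial marker EPCAM was measured at 0.91 to 2.09 FPKM. GRIK1 itself had 18, 9 and 8 counts in the NC libraries and 15, 20 and 20 counts in those labelled as its siRNA. Summed over libraries, 55 counts stood against 35 in NC, a scaled ratio of 1.396 (95% exact interval 0.897 to 2.197, counting error only) that includes 1. At 0.13 to 0.38 FPKM, GRIK1 lay under the mean of 0.5 FPKM that a gene needed to be tested. These few counts therefore show no fall of the targeted transcript in the libraries labelled as knockdown. The study itself reported an efficient knockdown of GRIK1 in U87-MG cells, with siRNA1 the most effective. Every direction below is given for libraries by label only. NC 3 stood apart: its correlations with the other libraries in log2 CPM (counts scaled to a common library size) were 0.952 to 0.968, against 0.980 to 0.992 among the others, and the genes for ribosomal proteins took 9.37% of its counts against 4.79% to 5.50% elsewhere. Therefore, the numbers of genes called by edgeR are given both with the 6 libraries and without NC 3. For some genes the result of a single fit is printed.

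The genes covered a wide range of levels. FPKM divides by the annotated exonic size of each gene, so comparisons of level between genes depend on that annotation. On this scale, 4 genes averaged more than 100 over the 5 libraries other than NC 3, 24 lay between 10 and 100 and 23 lay under 10. HSP90AB1, the constitutive cytosolic HSP90, was highest at 399 ± 36.8 FPKM (SD, n = 5). HSPB1, a small heat shock protein that keeps damaged proteins soluble, followed at 140.0 ± 22.8, then HSP90AA1, the inducible cytosolic HSP90, at 134 ± 8.50, and HSPA8, the constitutive cytosolic HSP70, at 113 ± 5.22. The levels of HSPB1 and HSP90AA1 differed by less than their spread. In NC 3 the order was another, with HSPA8 first at 427 FPKM, HSP90AB1 at 362 and HSP90AA1 at 306. At the low end, the stress-inducible HSPA6 averaged 0.726 ± 0.484 FPKM and HSPA1B 6.17 ± 0.570. HSPB7, HSPA1A and CRYAB lay under the mean of 0.5 FPKM that a gene needed to be tested, which left 48 tested genes.

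**Figure D1:**
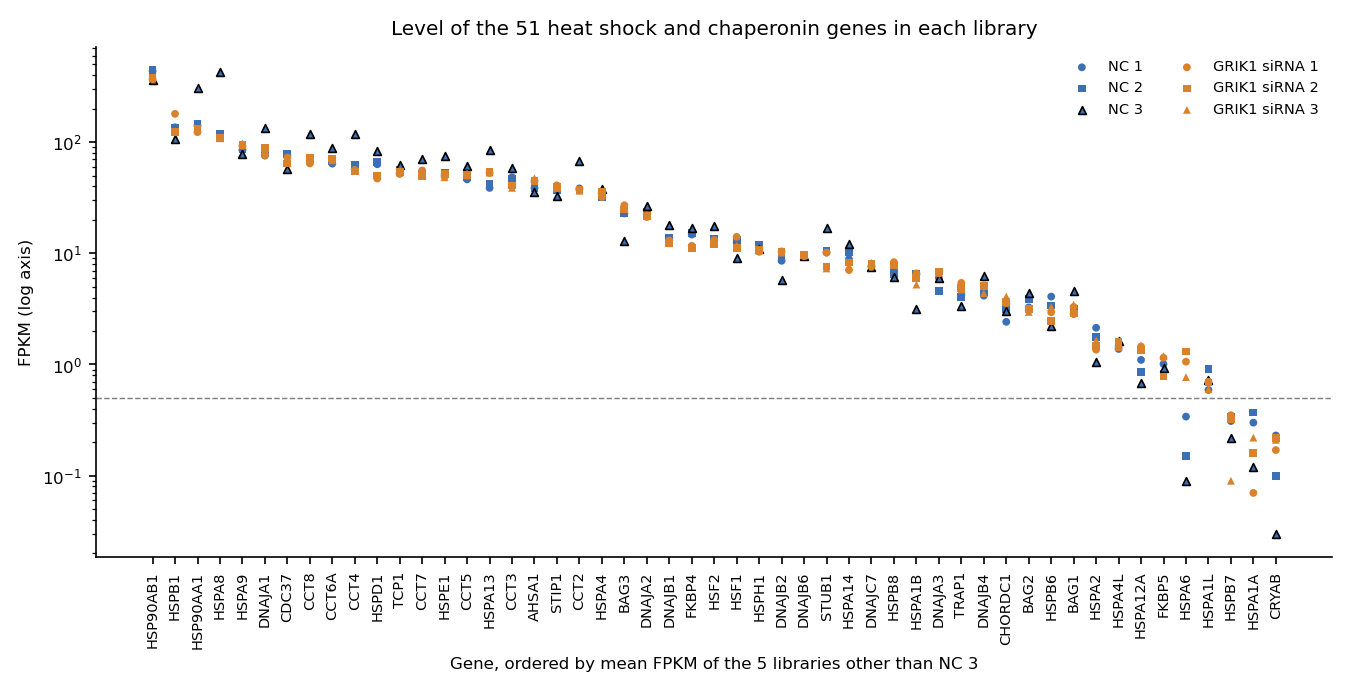
FPKM (log axis) of the 51 genes in each of the 6 libraries, with genes ordered by their mean over the 5 libraries other than NC 3. Circles, squares and triangles are replicates 1, 2 and 3, blue is NC and orange GRIK1 siRNA, NC 3 is outlined in black, and the dashed line marks 0.5 FPKM; HSPA8 in NC 3 reached 427 FPKM, above every other gene of that library in the plot.

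The 3 control libraries did not agree on these genes. In CPM scaled by TMM (normalized CPM), NC 3 was the highest of the 6 libraries for 29 of the 48 tested genes (60.4%), while it was highest for 35.5% of all 15870 tested genes. It was the lowest for 10 of the 48 (20.8%), against 35.8% of all genes. On the FPKM scale, which is scaled to total counts only, it was highest for 25 of the 48 (52.1%) and for 26.9% of all genes, and lowest for 17 of the 48 (35.4%) and for 44.6% of all genes. NC 3 held at least 1.5 times the value of each other library for 10 of the 48 genes (20.8%), against 10.9% of all genes. The median log2 ratio of NC 3 to the mean of NC 1 and NC 2 was 0.37 over the 48 genes and -0.03 over all genes.

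The excess was uneven between the roles. All 8 CCT subunits, both mitochondrial chaperonins, the 3 HSP110 exchange factors and 7 of the 8 J-domain proteins were highest in NC 3 in normalized CPM. In FPKM the counts were again 8 of 8 for CCT and 2 of 2 for the mitochondrial chaperonins, but 2 of 3 for the exchange factors and 4 of 8 for the J-domain proteins. Of the BAG proteins with STUB1, 3 of 4 were highest in NC 3 on both scales. Their median log2 ratio of NC 3 to NC 1 and NC 2 was 0.62, against 0.60 for CCT. In contrast, none of the 3 tested small heat shock proteins was highest in NC 3 on either scale. The 10 genes that were lowest there in normalized CPM were HSF1, HSPA1B, HSPA2, HSPA6, HSPA12A, TRAP1, STIP1, HSPB1, BAG3 and DNAJB2. HSPA8 showed the largest ratio, 4.09 times the mean of NC 1 and NC 2, which ranked 2 among the 15870 tested genes and 1 among the 4034 that averaged 10 FPKM or more. HSP90AA1 at 2.44 times ranked 118 and HSPA13 at 2.35 times ranked 155 among all tested genes. Taken over the 51 genes, the share of counts was 1.14% in NC 3 and between 0.789% and 0.830% in the other 5 libraries. The part that the ribosomal protein share or the depth of NC 3 plays in these values was not tested.

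**Figure D2:**
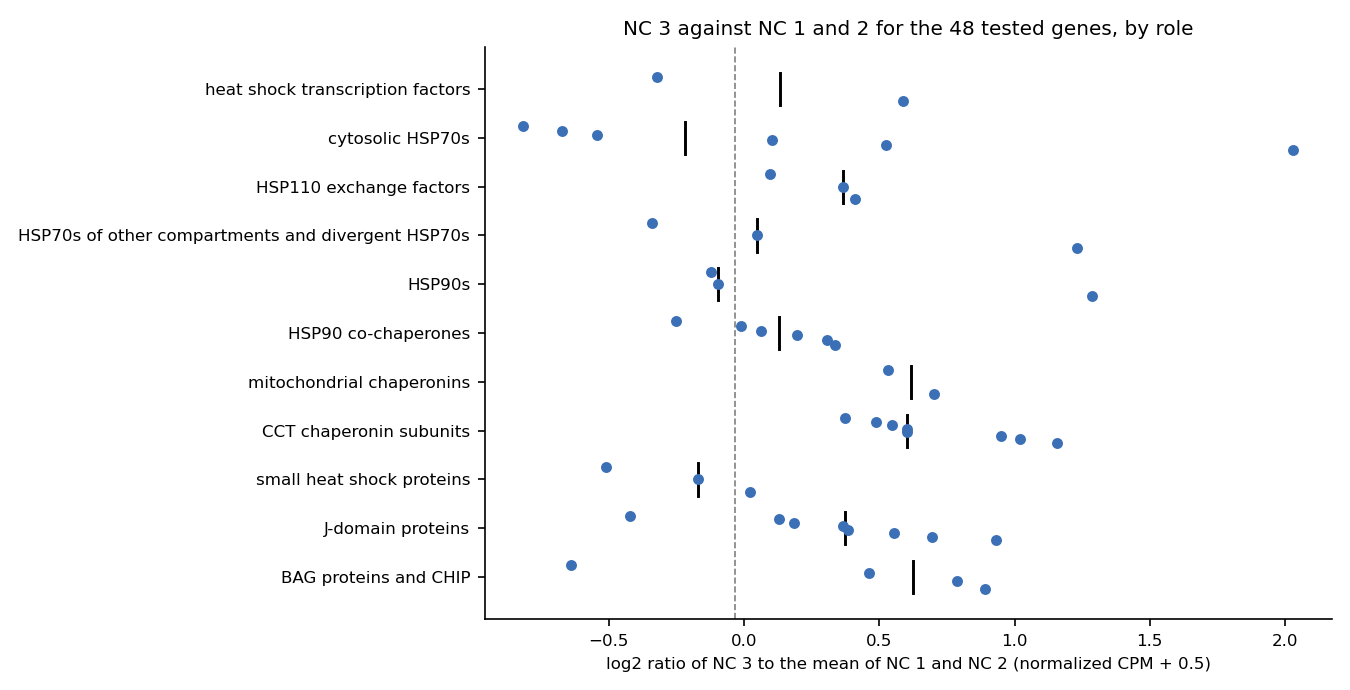
Log2 ratio of NC 3 to the mean of NC 1 and NC 2 (normalized CPM + 0.5) for the 48 tested genes, 1 point per gene, grouped by role. Black bars are group medians and the dashed line is the median of all 15870 tested genes at -0.03; the point near 2 is HSPA8, and all CCT subunits lie to the right of 0.

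With all 6 libraries, 1 of the 48 genes passed an adjusted p under 0.05 in edgeR's quasi-likelihood test, HSPA6, which was higher in the siRNA-labelled libraries. HSPA6 passed the filter of 0.5 FPKM only through those libraries (0.193 FPKM on average in NC and 1.05 in the others), the 1 tested gene of the 48 with a group mean under that limit, so its call is no count in support of the list. That share (2.08%) stands beside 3.09% of all genes in either direction and 1.61% of all genes in the higher direction. No gene was called lower by edgeR, where DESeq2 called 2 and voom with sample quality weights 11. Of all 15870 tested genes, DESeq2 called 815 lower and voom 3318. In edgeR, 10 of the 48 had an unadjusted p under 0.05, as had 3987 of all 15870 genes. The median log2 fold change was -0.19 over the 48 genes and -0.02 over all genes, with 15 positive and 33 negative values. The groups did not overlap in normalized CPM for 25 genes (52.1%), 10 higher and 15 lower, against 38.5% of all genes.

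Without NC 3, 18 of the 48 genes were called (37.5%), against 35.2% of all genes, a share near the background. Of these, 7 were higher (AHSA1, CHORDC1, DNAJA3, DNAJB2, HSPA12A, HSPA13 and HSPA6) where 16.9% of all genes were called higher, and 11 were lower (CCT3, CDC37, DNAJB1, FKBP4, HSP90AA1, HSP90AB1, HSPA14, HSPA2, HSPA8, HSPD1 and HSPH1) where 18.3% of all genes were. HSPA6, which passed the filter only through the siRNA-labelled libraries, alone among them had an absolute log2 fold change over 1. The median log2 fold change was -0.04, and 0.01 over all genes. The sign of the fold change turned between the fits with and without NC 3 in 10 of the 48 genes.

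**Figure D3:**
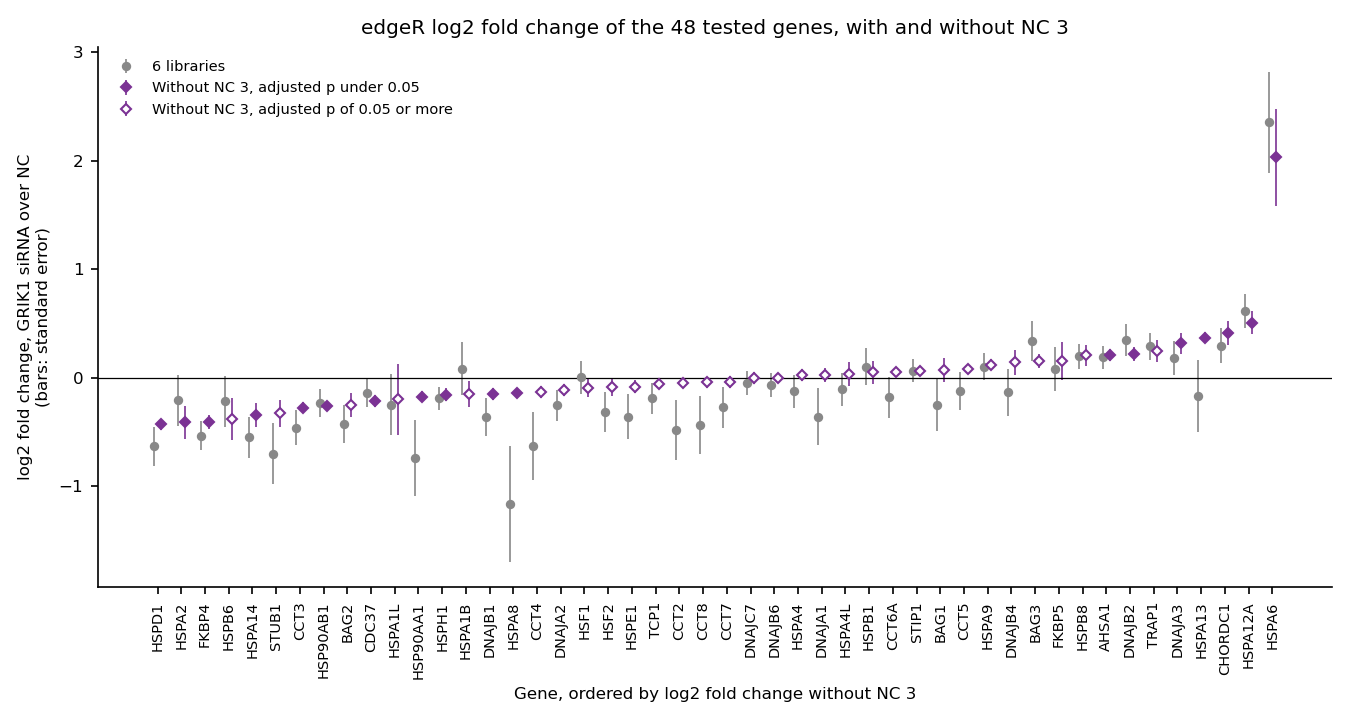
Log2 fold change (GRIK1 siRNA over NC, edgeR) of the 48 tested genes, with standard errors as bars, from the 6 libraries (grey) and without NC 3 (purple, filled where the adjusted p was under 0.05). HSPA6 lies near 2 in both fits, while HSPA8 moves from -1.17 to -0.14 and HSPA13 from -0.17 to 0.37.

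HSF1 and HSF2, the factors that bind heat shock elements, were not called in either fit. HSF1 had 66.3, 69.6 and 54.2 normalized CPM in NC 1 to 3 and 72.6, 57.2 and 60.7 in the siRNA-labelled libraries, so the groups overlapped. HSF2 had 34.8, 36.0 and 53.5 in NC and 34.6, 31.8 and 33.5 in the siRNA-labelled libraries, with NC 3 standing above the other 5 and the groups separate by a narrow margin. Without NC 3 the log2 fold changes were -0.10 (SE 0.08, adjusted p = 0.409) for HSF1 and -0.09 (SE 0.08, adjusted p = 0.457) for HSF2.

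HSPA6 encodes an HSP70 that is nearly silent in unstressed cells and strongly induced by heat. It had 9, 4 and 3 counts in NC 1 to 3 and 31, 39 and 24 counts in the siRNA-labelled libraries, or 0.80, 0.36 and 0.24 against 2.44, 3.01 and 1.78 normalized CPM. Every siRNA-labelled library stood above every NC library, yet the level stayed at or under 1.31 FPKM. The log2 fold change was 2.35 (SE 0.47, adjusted p = 0.0449) with 6 libraries and 2.03 (SE 0.45, adjusted p = 0.00175) without NC 3. Because the filter was passed through the group in which the gene is high, these p-values stand beside the fit with no filter, where the log2 fold change was 2.33 (adjusted p = 0.00390). Summed over libraries, 94 counts stood against 16, a scaled ratio of 5.22 (95% exact interval 3.05 to 9.50, counting error only). The call ended when NC 1 (adjusted p = 0.0677), NC 2 (0.131) or GRIK1 siRNA 1 (0.191), 2 (0.234) or 3 (0.201) was left out, with log2 fold changes of 2.16 to 2.98.

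HSPA6 (1: 161524540 to 161526894, plus strand of GRCh38) has 27.6% of its 100-base windows in common with the pseudogene HSPA7, which had 1 count in all libraries together. A readthrough transcript that joins the neighbouring FCGR2A on the same strand overlaps it, and the strand setting of the counting was not given in the sources used here. The other genes that respond to heat most sharply did not share its call. HSPA1B, an inducible HSP70, had 16.1, 16.3 and 9.01 normalized CPM in NC and 16.2, 14.8 and 12.9 in the siRNA-labelled libraries. Its log2 fold change was 0.08 (SE 0.24, adjusted p = 0.845) with 6 libraries and -0.15 (SE 0.12, adjusted p = 0.368) without NC 3. HSPA1A, whose protein differs little from that of HSPA1B, had 8, 10 and 4 counts in NC and 2, 5 and 7 in the others, a scaled ratio of 0.565 (95% exact interval 0.267 to 1.16) that includes 1. HSPA1A and HSPA1B share 67.3% and 72.7% of their 100-base windows with other genes, chiefly each other, and how the counting placed such reads is not given, so the low level of HSPA1A is uncertain.

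HSPA8, the HSP70 that serves protein folding in unstressed cells, was the member that differed most between the controls. It had 561, 579 and 2332 normalized CPM in NC 1 to 3 and 516, 516 and 514 in the siRNA-labelled libraries. The 5 libraries other than NC 3 thus lay within a narrow band, in which both NC libraries were above all 3 others. The log2 fold change was -1.17 (SE 0.53, adjusted p = 0.219) with 6 libraries and -0.14 (SE 0.05, adjusted p = 0.0201) without NC 3. HSPA8 (11: 123057489 to 123063230, minus strand) hosts 3 snoRNA genes on its own strand.

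The other cytosolic HSP70s were called lower without NC 3 in 2 cases. HSPA14, which works at the ribosome, had a log2 fold change of -0.35 (SE 0.11, adjusted p = 0.0207), and HSPA2, best known from the testis, one of -0.41 (SE 0.15, adjusted p = 0.0431). With 6 libraries the edgeR values were -0.55 (adjusted p = 0.134) for HSPA14 and -0.21 (adjusted p = 0.597) for HSPA2. HSPA14 has 14.2% of its 100-base windows in common with a second gene entry of the same name, and how the counting placed such reads is not given. HSPA1L, a relative of HSPA1A, was measured at 1.60 to 2.51 normalized CPM and was not called (adjusted p = 0.686 without NC 3).

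Of the HSP110 exchange factors, which release ADP from HSP70, HSPA4 was the most abundant. It had 167, 162 and 219 normalized CPM in NC and 158, 175 and 168 in the siRNA-labelled libraries, and its log2 fold change of -0.13 with 6 libraries became 0.02 (SE 0.05, adjusted p = 0.760) without NC 3. HSPH1, the heat-inducible member, had 93.0, 100.6 and 103 in NC and 84.1, 86.9 and 89.3 in the siRNA-labelled libraries, which lay below all NC libraries. It was called lower by edgeR without NC 3, and by voom with sample quality weights with all 6 libraries, but not by edgeR with 6 libraries. The log2 fold change without NC 3 was -0.16 (SE 0.06, adjusted p = 0.0482).

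HSPA9, the mitochondrial HSP70 that pulls proteins through the inner membrane, had 820.3, 846 and 862 normalized CPM in NC and 882, 901 and 934 in the siRNA-labelled libraries. The groups did not overlap and NC 3 lay close to the other NC libraries, but the difference was not called (log2 fold change 0.12, SE 0.05, adjusted p = 0.0587 without NC 3). HSPA12A, a distant HSP70 relative, had 23.0, 18.2 and 16.2 in NC and 29.7, 27.6 and 30.5 in the siRNA-labelled libraries. Its log2 fold change was 0.61 (SE 0.16, adjusted p = 0.0787) with 6 libraries and 0.51 (SE 0.11, adjusted p = 0.00151) without NC 3.

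HSPA13, an HSP70 relative of the endoplasmic reticulum, is a case in which NC 3 decides the direction. It had 159, 176 and 394 normalized CPM in NC and 213, 218 and 216 in the siRNA-labelled libraries, so the latter lay between NC 1 and 2 on one side and NC 3 on the other. The log2 fold change was -0.17 (SE 0.33, adjusted p = 0.769) with 6 libraries and 0.37 (SE 0.05, adjusted p = 2.31e-05) without NC 3.

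The HSP90 genes of the cytosol were both called lower in the siRNA-labelled libraries once NC 3 was left out. HSP90AB1 had 1282, 1319.6 and 1216 normalized CPM in NC and 1066, 1092 and 1090.2 in the siRNA-labelled libraries. All 3 NC libraries, NC 3 included, were above the others, and the log2 fold change was -0.23 (SE 0.13, adjusted p = 0.289) with 6 libraries and -0.26 (SE 0.05, adjusted p = 0.000219) without NC 3. HSP90AA1 had 706, 736 and 1758 in NC and 609.8, 647 and 659 in the siRNA-labelled libraries. Its log2 fold change was -0.74 (SE 0.35, adjusted p = 0.229) with 6 libraries and -0.17 (SE 0.05, adjusted p = 0.0112) without NC 3.

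Within a library, the ratio of HSP90AA1 to HSP90AB1 in FPKM does not depend on depth or scaling. It was 0.322, 0.326 and 0.845 in NC and 0.334, 0.347 and 0.354 in the siRNA-labelled libraries. In the same way, the FPKM ratio of HSPA8 to HSPA9 was 1.38, 1.38 and 5.46 in NC and 1.18, 1.16 and 1.11 in the siRNA-labelled libraries. NC 3 was thus high in the first-named gene of each pair and not in its relative. TRAP1, the HSP90 of mitochondria, had a log2 fold change of 0.25 (SE 0.10, adjusted p = 0.0655) without NC 3 and was not called by edgeR, while voom with sample quality weights called it higher.

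**Figure D4:**
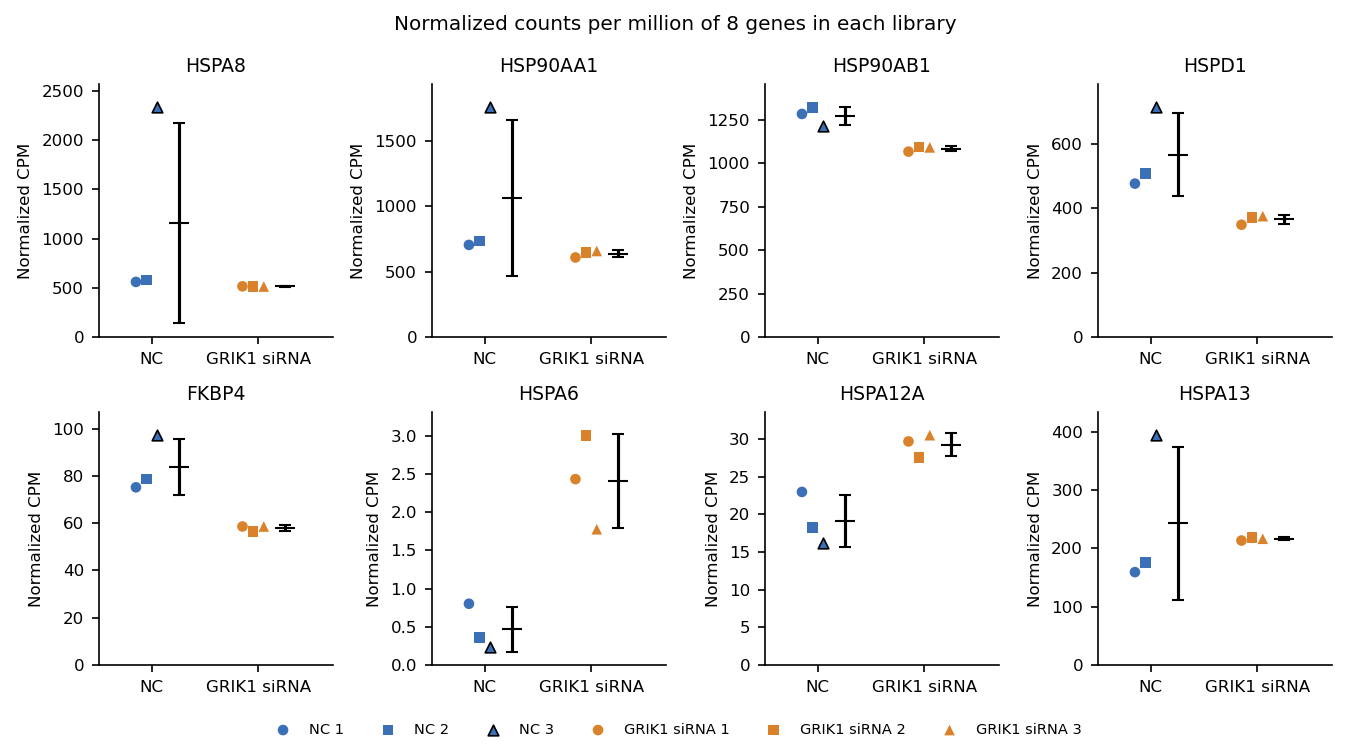
Normalized CPM of 8 genes in each library, on axes that start at 0, with NC in blue and GRIK1 siRNA in orange; NC 3 is outlined in black. The black marks to the right of each group are its mean and SD (n = 3). NC 3 lies far above every other library in HSPA8, HSP90AA1 and HSPA13. The groups are separate in all panels except HSPA13, by a narrow margin in HSPA8 and HSP90AA1 when NC 3 is set aside.

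The co-chaperones of HSP90 went both ways. FKBP4, an immunophilin of steroid receptor complexes, had 75.2, 78.7 and 97.2 normalized CPM in NC and 58.6, 56.4 and 58.6 in the siRNA-labelled libraries. The log2 fold change was -0.53 (SE 0.13, adjusted p = 0.0748) with 6 libraries and -0.41 (SE 0.06, adjusted p = 6.24e-05) without NC 3. CDC37, which brings kinases to HSP90, had 228, 236 and 195 in NC and 215, 190.2 and 193 in the siRNA-labelled libraries, so the groups overlapped through NC 3. It was called lower without NC 3 (log2 fold change -0.22, SE 0.05, adjusted p = 0.00444), but not with 6 libraries (-0.14, adjusted p = 0.516).

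AHSA1, which stimulates the ATPase of HSP90, had 112, 114 and 118 normalized CPM in NC and 128, 128 and 136 in the siRNA-labelled libraries, with no overlap. It was called higher without NC 3, by a log2 fold change of 0.21 (SE 0.05, adjusted p = 0.00505), and so was CHORDC1, an HSP90-binding protein with zinc-binding domains, by 0.41 (SE 0.11, adjusted p = 0.00590). With 6 libraries neither was called by edgeR (AHSA1 0.19, adjusted p = 0.300, and CHORDC1 0.30, adjusted p = 0.287). STIP1, which links HSP70 to HSP90, lay between 170 and 183 normalized CPM in all libraries, with a log2 fold change of 0.06 in both fits (SE 0.05, adjusted p = 0.353 without NC 3). FKBP5, a target of glucocorticoids, was not called (adjusted p = 0.537 without NC 3).

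HSPD1, the mitochondrial chaperonin, was called lower in the siRNA-labelled libraries without NC 3. It had 477, 508 and 713 normalized CPM in NC and 349, 372 and 376 in the others, with every NC library above every other library. The log2 fold change was -0.63 (SE 0.18, adjusted p = 0.0959) with 6 libraries and -0.43 (SE 0.05, adjusted p = 3.73e-06) without NC 3. HSPE1, its lid, which is transcribed in the opposite direction from the neighbouring start, had 91.9, 95.4 and 153 in NC and 86.7, 92.3 and 86.2 in the siRNA-labelled libraries, and was not called (log2 fold change -0.08, SE 0.06, adjusted p = 0.301 without NC 3). The FPKM ratio of HSPD1 to HSPE1 was 1.24, 1.27 and 1.12 in NC and 0.963, 0.962 and 1.04 in the siRNA-labelled libraries. Each NC library was above each of the others in this ratio, by 1.21 ± 0.083 against 0.988 ± 0.046 (SD, n = 3 each). The annotated genes overlap on opposite strands, and reads in the overlap cannot be told apart without the strand.

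The 8 subunits of CCT form one ring and were of similar level. The highest subunit exceeded the lowest by 1.75 to 1.99 times in FPKM over the 6 libraries, and their summed FPKM was 427, 439 and 642 in NC and 424, 429.7 and 423 in the siRNA-labelled libraries. NC 3 was therefore above the other libraries for the complex as a whole. CCT8 and CCT6A were the highest by mean FPKM over the 5 libraries other than NC 3 (68.1 ± 2.85 and 68.0 ± 2.60, SD, n = 5) and did not differ beyond their spread. CCT8 had 221, 234 and 441 normalized CPM in NC and 209, 233 and 220.5 in the siRNA-labelled libraries. CCT2, CCT4 and CCT8 were at least 1.5 times as high in NC 3 as in each other library.

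Without NC 3, only CCT3 of the 8 subunits was called. It had 185, 181 and 257 normalized CPM in NC and 153, 153 and 147 in the siRNA-labelled libraries, a log2 fold change of -0.28 (SE 0.05, adjusted p = 0.000235). The other 7 had log2 fold changes from -0.13 (CCT4, adjusted p = 0.0676) to 0.08 (CCT5, adjusted p = 0.184), each with an SE of about 0.05. In the fit with 6 libraries all 8 were negative, between -0.63 and -0.12, and none was called by edgeR or DESeq2, with 1 at an unadjusted p under 0.05 in edgeR, while voom with sample quality weights called CCT3. For CCT5 and CCT6A the sign turned when NC 3 was left out.

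**Figure D5:**
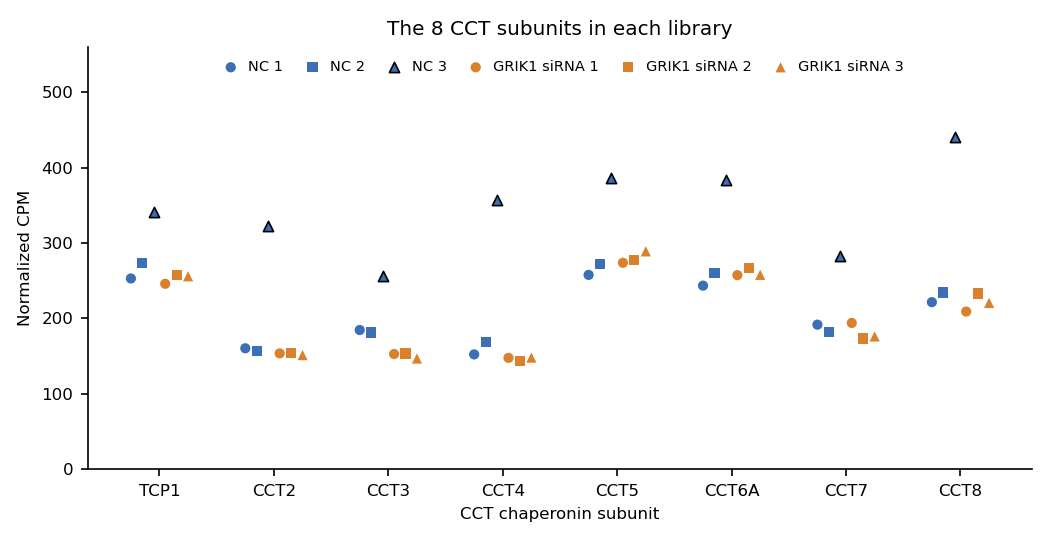
Normalized CPM of the 8 CCT subunits in each library, on an axis that starts at 0, with NC in blue, GRIK1 siRNA in orange and NC 3 outlined in black. NC 3 is the highest library for each subunit, and the other 5 libraries lie close together.

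Of the small heat shock proteins, HSPB1 had 218, 219 and 194 normalized CPM in NC and 284, 196 and 199 in the siRNA-labelled libraries. GRIK1 siRNA 1 was the highest and NC 3 the lowest, and the log2 fold change of 0.10 (SE 0.17, adjusted p = 0.731) became -0.09 when GRIK1 siRNA 1 was left out. HSPB8, a partner of BAG3, and HSPB6 were not called in either fit (adjusted p = 0.106 and 0.136 without NC 3). CRYAB, a lens crystallin that astrocytic tumours often express, had 11, 5 and 2 counts in NC and 9, 12 and 12 in the siRNA-labelled libraries, a scaled ratio of 1.63 (95% exact interval 0.890 to 3.07). HSPB7, a small heat shock protein of heart muscle, had 4 to 14 counts per library and a ratio of 0.834 (0.494 to 1.41).

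Among the J-domain proteins, DNAJA1, the most abundant, had 199.6, 225 and 406 normalized CPM in NC and 198, 229 and 222 in the siRNA-labelled libraries. Without NC 3 its log2 fold change was 0.03 (SE 0.06, adjusted p = 0.783). DNAJB1, the heat-inducible partner of HSP70, had 109.8, 113 and 164 in NC and 104, 99.0 and 98.7 in the siRNA-labelled libraries. All NC libraries were above the others, and the log2 fold change was -0.36 (SE 0.17, adjusted p = 0.234) with 6 libraries and -0.15 (SE 0.05, adjusted p = 0.0402) without NC 3. Without NC 3 the gene was thus called in the direction opposite to that of HSPA6, another textbook target of HSF1.

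DNAJB2, which is best known from neurons, had 49.4, 51.5 and 37.6 normalized CPM in NC and 59.1, 59.1 and 58.0 in the siRNA-labelled libraries and was called higher without NC 3 (log2 fold change 0.22, SE 0.07, adjusted p = 0.0160), as was the mitochondrial DNAJA3 (0.32, SE 0.09, adjusted p = 0.0142). DNAJA2, DNAJB4, DNAJB6 and DNAJC7 were not called, and the log2 fold changes of DNAJB6 and DNAJC7 were 0.00 in size to 2 decimals without NC 3 (SE 0.05 and 0.06).

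BAG3, which couples HSP70 to autophagy and is itself a target of HSF1, had 61.7, 62.5 and 39.7 normalized CPM in NC and 72.0, 65.9 and 68.8 in the siRNA-labelled libraries. The groups did not overlap and NC 3 was lowest, but the gene was not called (log2 fold change 0.34, SE 0.19, adjusted p = 0.294 with 6 libraries, and 0.15, SE 0.06, adjusted p = 0.0789 without NC 3). STUB1, the ubiquitin ligase CHIP that marks HSP70 clients for degradation, had 23.3, 24.2 and 44.5 in NC and 22.9, 17.2 and 16.6 in the siRNA-labelled libraries, with an adjusted p of 0.0540 without NC 3. BAG1 and BAG2 were not called in either edgeR fit, while voom with sample quality weights called BAG2 and STUB1 lower.

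The 8 genes with the motif of 3 units in a promoter window moved in different ways. Without NC 3, HSPA6 (which passed the filter only through the siRNA-labelled libraries) and CHORDC1 were called higher. HSPA8, HSP90AA1, HSP90AB1 and HSPD1 were called lower, and DNAJB6 and DNAJA1 were not called. In that fit 35.2% of all genes and 37.5% of the 48 were called, and the difference from these 8 genes was not tested. In normalized CPM, NC 3 was the highest library for HSPA8, HSP90AA1, HSPD1, DNAJB6 and DNAJA1, and it was not for HSP90AB1, HSPA6 and CHORDC1. It was highest for 35.5% of all genes and 60.4% of the 48. In FPKM it was not highest for DNAJB6 (9.45, against up to 9.70 in the other libraries). The matches in HSPA6 at base -74, in HSPA8 at -55, in HSP90AA1 at -88 and in CHORDC1 from -60 lay within 100 bases of the start.

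A list of 40 other chaperone genes, made of 6 prefoldin subunits and 34 other chaperones and co-chaperones, of which 39 were tested, was counted in the same way. With 6 libraries 1 was called, which was higher, against 3.09% of all genes in either direction. An unadjusted p under 0.05 in edgeR was reached by 6, and by 3987 of all 15870 genes. Without NC 3 the counts were 9 higher and 6 lower, 38.5% of the 39, against 35.2% of all genes. Of all genes, 16.9% were called higher and 18.3% lower in that fit. The directions of the calls in this list and in the 48 genes were not compared by a test, and no difference is read from these small counts. The gene called with 6 libraries was DNAJC2, a J-domain protein of the ribosome, with 45.3, 51.5 and 43.0 normalized CPM in NC and 70.4, 74.9 and 74.7 in the siRNA-labelled libraries (log2 fold change 0.66, SE 0.12, adjusted p = 0.0392). SERPINH1, the collagen chaperone, had 417, 436 and 249 in NC and 778, 666 and 672 in the siRNA-labelled libraries, with a log2 fold change of 0.94 (SE 0.22, adjusted p = 0.0675) with 6 libraries and 0.73 (SE 0.06, adjusted p = 1.23e-07) without NC 3.

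DNAJB9, a J-domain protein of the endoplasmic reticulum, had 93.7, 97.9 and 206 normalized CPM in NC and 136, 145 and 142 in the siRNA-labelled libraries. This is the order seen for HSPA13, with NC 3 on the far side, and the log2 fold change was 0.09 (SE 0.30, adjusted p = 0.864) with 6 libraries and 0.56 (SE 0.05, adjusted p = 4.45e-07) without NC 3. PFDN2, a prefoldin subunit that hands actin and tubulin to CCT, was called higher without NC 3 (0.45, SE 0.07, adjusted p = 0.000142). BAG6, which guards exposed membrane segments, was called lower without NC 3 (-0.42, SE 0.07, adjusted p = 0.000186). With 6 libraries neither was called by edgeR (PFDN2 0.29, adjusted p = 0.290, and BAG6 -0.22, adjusted p = 0.508).

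Near-identical copies and overlapping gene entries limit some of these values. Of the 51 genes, 5 have more than 5% of their 100-base windows in common with another gene: HSPA6, HSPA1A, HSPA1B, HSPA14 and HSPE1. HSPA14 shares them with a second entry of the same name, and HSPE1 chiefly with HSPE1-MOB4, which overlaps it on the same strand. Pseudogene entries in the table exist for 22, 113 in all. HSPD1 had 34207 counts in all libraries and its 18 pseudogene entries 726, and HSPA8 had 61927 against 87 in 17 entries.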

How the data were processed

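RNA of U87-MG cells was taken with Trizol and sequenced in 6 libraries, 3 per group, assigned by their titles. The deposited table lists, for 61806 genes, whole-number read counts that the authors did not normalize and FPKM values that the authors had computed from those counts. The formula, counts over exonic size and library total, was checked and gave 100% of the FPKM values within rounding. The submitters' processing notes name cutadapt 1.9.1, HISAT2, HTSeq and GRCh38, and the strand setting was not given in the sources used here. Total counts lay between 11099909 and 14006968, and intervals cover counting error only.

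The 15870 genes averaging 0.5 FPKM or more were tested on counts with the quasi-likelihood test of edgeR 4.0.16, TMM scaling and no covariate, with Benjamini-Hochberg adjustment over all of them. The alternatives were median-of-ratios scaling, no filter or a mean of at least 1 FPKM, DESeq2 1.42.0, voom with sample quality weights in limma 3.58.1, the replicate number as a block and each library left out. The scripts were tested on simulated data that held no outlying library, so that test does not cover the effect of NC 3. Python 3.11.15 with numpy 2.4.6, pandas 2.3.3 and matplotlib 3.10.9 was used for the rest. Promoter windows were those of RefSeq on GRCh38.p14, and overlaps and shared 100-base windows were taken from gene models, GENCODE 29 being used to check the coordinates, which were the same for 17 of the 51 genes.

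The members and the lists were chosen with earlier results of these data known. By rule, values in every library were given for HSF1 and HSF2, the called genes, those called without NC 3 with an absolute log2 fold change of at least 0.5, the most abundant gene of each role, and HSPA1A, HSPA1B, HSPA6, HSPB1, DNAJB1, BAG3 and HSPH1, and of the other chaperones the 5 with the smallest p without NC 3 were named. The genes HSP90AA1, HSPA13, FKBP4 and the others with values in the text were named after their values were seen.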

Additional observations from a re-analysis of the deposited data

How the results depend on the processing

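The call of HSPA6 was kept with median-of-ratios scaling, without a filter, with DESeq2 and with voom weights. All of these fits used the same 6 libraries and the same counts, so none of them is separate support. Except for the fit without a filter, they also used the filter that HSPA6 passed only through the siRNA-labelled libraries. With a mean of at least 1 FPKM required, 0 genes were called higher and 0 were past both thresholds, since HSPA6 was then not tested. DESeq2 called 2 higher (HSPA6, HSPA12A) and 2 lower (FKBP4, HSPD1). Over all 15870 tested genes it called 861 higher and 815 lower. Without a filter 2 were lower (HSPA8, HSPD1) and 2 past both thresholds (HSPA6, HSPA8). Of the 34080 genes in that fit, 676 were lower and 664 past both thresholds. With voom weights, where NC 3 had a weight of 0.0498, 8 of the 48 were called higher and 11 lower. The same fit called 3009 of all 15870 tested genes higher and 3318 lower, a share near that of the 48. With each library left out in turn, the number called higher was 0 to 7, lower 0 to 11 and past both thresholds 0 to 1. Among the fits with a library left out, calls were made only without NC 3. With any other library left out, 0 of all tested genes were called by edgeR. In these fits 4 to 12 of the 48 had an unadjusted p under 0.05, as had 2238 to 4434 of all 15870 genes. The common dispersion fell from 0.0391 to 0.00298 without NC 3. Deviations from the group means correlated at -0.07, 0.04 and -0.04 between libraries of the same replicate number. The NC mean includes NC 3, so these values cannot settle whether the numbers pair the samples. With a replicate block 0 were called higher and 0 past both thresholds (HSPA6 adjusted p = 0.10).

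The median log2 fold change was -0.19 with 6 libraries and -0.23 to -0.04 with a library left out, the value of -0.04 being that without NC 3. It moved by less than 1 SD of the library medians (0.147) in every alternative. That SD includes the spread from NC 3 itself, so it cannot show that the median is stable when NC 3 is left out. Among the 20 named and tested genes, signs turned with voom weights for DNAJA1 (0.014), HSF1 (-0.16), HSPA13 (0.34), HSPA1B (-0.19), HSPA4 (0.041) and HSPB1 (-0.054), and without a filter for HSF1 (-0.020). Of these genes, those that turned with a library left out had log2 fold changes of -0.54 to 0.027 (DNAJA1), -0.10 to 0.076 (HSF1), -0.40 to 0.37 (HSPA13), -0.15 to 0.22 (HSPA1B), -0.21 to 0.025 (HSPA4) and -0.091 to 0.20 (HSPB1). Without NC 3, 10 of the 48 turned, HSPA4L, CCT5, CCT6A, DNAJB4 and BAG1 among them. The causes were not tested. At this depth a gene such as HSPA6, with 3 to 39 counts per library, is measured to a wide interval.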
